A study of Mus musculus with 21 samples.

Results

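AMPA and kainate receptors are the tetrameric glutamate-gated channels that carry most fast excitatory input to neurons, and their 9 pore-forming subunit genes, Gria1 to Gria4 (GluA1 to GluA4) and Grik1 to Grik5 (GluK1 to GluK5), are described here in AGRP and POMC neurons of fed and food-deprived (FD) mice. The members were taken by gene symbol, 9 of the 35266 genes in the deposited table. All 9 passed the filter on low counts, which kept 16513 genes. Each library was made from fluorescent neurons picked by hand out of the dissociated hypothalamic arcuate nucleus of 1 male mouse on the C57BL/6J background. AGRP neurons came from NPY-hrGFP mice, whose reporter follows the Npy gene and not Agrp itself, and POMC neurons from mice labelled Pomc-GFP, the line that the study's methods call Pomc topazFP. The 4 groups were AGRP fed (n = 5 mice, postnatal day 46 to 55), AGRP FD (n = 6, day 47 to 55), POMC fed (n = 5, day 51 to 56) and POMC FD (n = 5, day 54 to 56). Food was removed for 24 hr from the FD mice, whereas fed mice ate freely, and every mouse was housed alone over that time. AGRP neurons drive eating and become more active without food, POMC neurons restrain eating, and the question put to these genes is whether the transcripts for excitatory receptors shift with deprivation and whether they do so alike in both cell types.

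GluA subunits assemble with one another and GluK subunits with one another. GluA2 sets the calcium permeability of an AMPA receptor. Its transcript is edited at the codon for a glutamine in the pore loop, the Q/R site, where an edited codon is read as arginine and the channel passes little calcium. GluK1 and GluK2 transcripts are edited at the matching codon, to a variable extent. GluK1 to GluK3 can form channels alone, while GluK4 and GluK5 bind kainate tightly and need one of them to form a channel. Excitatory synapses in the arcuate nucleus act largely through AMPA receptors, and kainate receptors are known for modulating transmission on both sides of the synapse.

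The unedited pore-loop codon and its coding neighbours are printed to show the site by which the subunits differ in function and how alike the paralogs are where short reads must be told apart. The sequences were read from GENCODE M21 transcripts (GRCm38, the mm10 build), with the glutamine codon in capitals.
Gria1: ggggccttcatgCAGcaaggatgtgac
Gria2: ggtgcctttatgCAGcaaggatgcgat
Gria3: ggtgcttttatgCAGcaaggatgtgat
Gria4: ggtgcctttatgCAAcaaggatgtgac
Grik1: ggagctctcatgCAGcaaggatcggag
Grik2: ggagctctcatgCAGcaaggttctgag
Grik3: ggctccctgatgCAGcaaggatctgaa
Grik4: ggaggcttcatgCAGcaaggctccact
Grik5: ggtggcttcatgCAGcagggctcggag
The codon lies in coding exon sequence at chr11:57243094-57243096 (Gria1, exon 11 of 16, plus strand), chr3:80706911-80706913 (Gria2, exon 11 of 16, minus strand), chrX:41610265-41610267 (Gria3, exon 11 of 16, plus strand) and chr9:4464137-4464139 (Gria4, exon 12 of 17, minus strand). In the kainate genes it is at chr16:87940542-87940544 (Grik1, exon 13 of 18, minus strand), chr10:49244329-49244331 (Grik2, exon 12 of 16, minus strand), chr4:125691207-125691209 (Grik3, exon 12 of 16, plus strand), chr9:42547623-42547625 (Grik4, exon 14 of 19, minus strand) and chr7:25022497-25022499 (Grik5, exon 15 of 20, minus strand). No stretch of 100 bases, the read length, in any member's transcripts was found exactly in a transcript of another gene, and the longest exact run that members shared was 57 bases, between Gria3 and Gria4. This check covers exact reads of full length only. The authors also kept reads shortened by adaptor removal and allowed mismatches in mapping. It therefore does not show that every counted read tells the members apart. The counts give the amount of each transcript and not its editing, which was not analysed here.

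Gene counts ranged from 9822298 to 37663979 per library (median 19189780), and the members' own counts from 8 to 26513 reads. The labelled cell types were checked on their transmitter genes: Agrp averaged 3455 TPM (transcripts scaled for gene length and to a fixed sum per library, so that genes can be compared) in AGRP fed and 15.5 TPM in POMC fed libraries, and Pomc 43.5 and 16029 TPM. Markers of astrocytes, oligodendrocytes and their precursors, microglia, endothelium and tanycytes, 24 genes in all, summed to between 50.9 and 152 TPM per library, and the ranges of the 4 groups overlapped. Of the 14 that could be tested, 1 rose in FD AGRP neurons, as 5.87% of all genes did. It was the astrocyte gene Aldh1l1, which ran from 0 to 0.045 TPM in fed and from 0.217 to 5.15 TPM in FD libraries. Among other astrocyte genes, Gfap averaged 1.64 TPM in AGRP fed and 1.03 TPM in AGRP FD libraries, and Aqp4 0.885 and 0.518 TPM. Slc1a3 went the other way, from 2.14 to 2.32 TPM. The summed astrocyte genes had a median of 4.23 TPM in AGRP fed and 4.66 TPM in AGRP FD libraries. The tanycyte gene Vim was higher in FD AGRP than in FD POMC neurons and in the interaction of cell type and deprivation. The part of such transcripts in the results was not tested. Since bulk libraries were measured, fewer cells with a transcript and less transcript per cell cannot be told apart.

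Gria2 was the most abundant of the 9 transcripts in every group, with 304 ± 24.4 TPM (SD, n = 5) in AGRP fed, 218 ± 30.0 (n = 6) in AGRP FD, 258 ± 93.4 (n = 5) in POMC fed and 353 ± 19.2 TPM (n = 5) in POMC FD libraries. What followed it differed between the cell types. In AGRP fed neurons the order of mean TPM was Gria2, Gria4, Gria1, Grik5, Grik2, Gria3, Grik4, Grik1 and Grik3, and only Grik5 over Grik2 (4 of 5 libraries), Grik4 over Grik1 and Grik1 over Grik3 had overlapping ranges between neighbours. In FD AGRP neurons Gria3 stood in the fourth place rather than the sixth, next to Gria1, which exceeded it in 5 of 6 libraries, and every pair of neighbours below Gria2 overlapped.

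POMC fed neurons had Gria1 in second place, then Grik5, Gria4, Grik2, Gria3, Grik4, Grik3 and Grik1. There all neighbours overlapped except Grik3 over Grik1. In FD POMC neurons the order was Gria2, Gria1, Gria4, Grik2, Gria3, Grik5, Grik3, Grik4 and Grik1, and Gria4, Grik2, Gria3 and Grik5, at 66.6 to 87.9 TPM on average, could not be ranked against their neighbours beyond their spread. Grik1, which encodes GluK1, was the least abundant member in POMC neurons under both conditions.

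**Figure D1:**
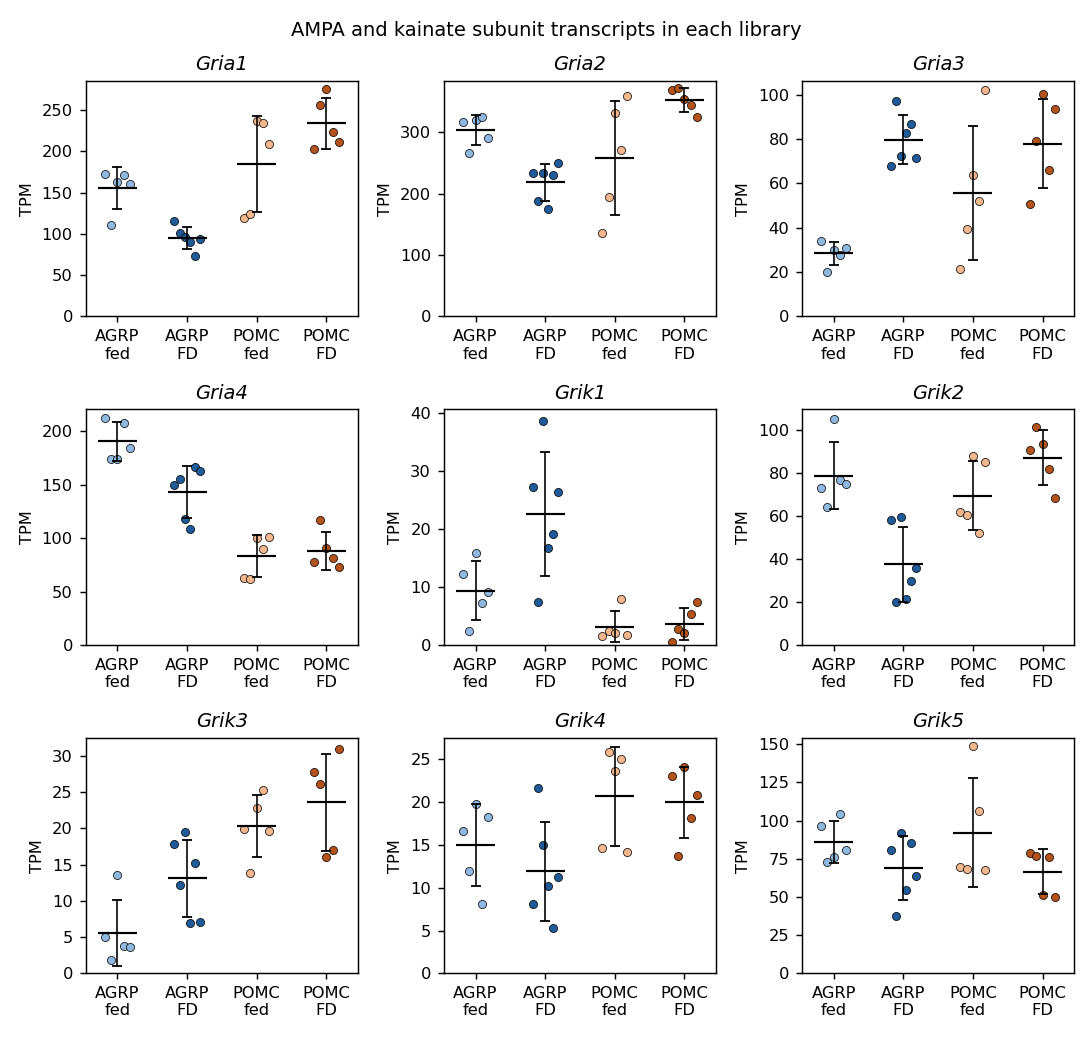
TPM of the 9 subunit genes (1 panel each, linear axes from 0) in the 21 libraries, grouped as AGRP fed, AGRP FD, POMC fed and POMC FD. Points are single mice, the horizontal line is the mean and the bars are ± 1 SD. The 6 AGRP FD libraries had 68.0 to 97.0 TPM of Gria3, all above the 5 AGRP fed libraries (20.02 to 33.9 TPM).

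In AGRP neurons 3 of the 9 genes passed the test between FD and fed mice (edgeR quasi-likelihood test on counts, Benjamini-Hochberg q under 0.05 over all genes tested): Gria3 and Grik3 rose and Grik2 fell. Across all genes 10.3% passed, 5.87% higher and 4.43% lower. The median log2 fold change was -0.20 over the 4 AMPA genes and -0.05 over the 5 kainate genes, against -0.02 over all 16513. Among the kainate genes 1 passed in each direction, and among the AMPA genes 1 passed, upward.

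Gria3 (ENSMUSG00000001986, chrX:41401128-41678601), which encodes the GluA3 subunit, read 33.9, 20.02, 30.04, 27.6 and 31.0 TPM in the 5 fed AGRP libraries and 68.0 at the lowest, 77.5 at the median and 97.0 TPM at the highest in the 6 FD libraries. The groups did not overlap. The fitted rise was 3.38-fold, a log2 fold change of 1.76 ± 0.25 (SE) with q = 1.81e-05, and Gria3 ranked 87 of 16513 genes by p. Within age cohorts the ratio of mean normalised counts was 3.19-fold in mice of day 46 or 47 (3 FD against 2 fed) and 3.54-fold in those of day 51 or later (3 against 3).

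Grik3 (ENSMUSG00000001985, chr4:125490700-125714173), which encodes GluK3, a subunit with low sensitivity to glutamate, was near the bottom of the order in fed AGRP neurons, with 5.04, 1.87, 13.6, 3.79 and 3.59 TPM. FD libraries held 6.95, 13.7 and 19.5 TPM (lowest, median, highest). The groups overlapped through fed replicate 3, whose 13.6 TPM lay among the FD values, while the other 4 fed libraries were below every FD library. The fitted rise was 2.80-fold (log2 1.48 ± 0.36, q = 0.00648). The ratio of mean normalised counts was 5.16-fold within the younger and 1.75-fold within the older mice, whose fed libraries included replicate 3.

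Grik2 (ENSMUSG00000056073, chr10:49099460-49788766), which encodes GluK2, the most abundant kainate subunit able to form channels alone in these cells, fell. Fed AGRP libraries read 73.2, 64.2, 106, 76.7 and 74.9 TPM, and FD libraries 19.9, 33.1 and 59.8 TPM at the lowest, median and highest. No FD library reached the fed range on the TPM scale, although on the scale of normalised counts the ranges met (41.7 to 114 against 113 to 170 reads scaled to library size, CPM). The log2 fold change was -0.86 ± 0.22 with q = 0.00901, or 0.55 of the fed level. By the ratio of mean normalised counts, FD mice were at 0.69 of the fed level within the younger mice and at 0.43 within the older ones.

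Gria1 (ENSMUSG00000020524, chr11:57011810-57330244), encoding GluA1, had 172, 111, 162, 172 and 160 TPM in fed and 73.5, 95.0 and 116 TPM (lowest, median, highest) in FD AGRP libraries. Fed replicate 2 was the lowest of its group, at 111 TPM, and was the only fed library inside the FD range. The log2 fold change was -0.46 ± 0.15, and at q = 0.0540 it missed the threshold, which it passed in 8 of 13 alternatives, such as DESeq2 (q = 0.0281), and missed in the others, such as limma-voom (q = 0.0693) and ERCC scaling (q = 1.00).

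Grik1 (ENSMUSG00000022935, chr16:87896196-88056176), encoding GluK1, read 12.2, 2.35, 15.9, 7.28 and 9.20 TPM in fed and 7.38, 22.8 and 38.7 TPM (lowest, median, highest) in FD AGRP libraries. Above every fed library lay 5 of the 6 FD libraries, but the spread was wide and the log2 fold change of 1.51 ± 0.59 had q = 0.108. With limma-voom its q was 0.0314.

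Gria2 (ENSMUSG00000033981, chr3:80681450-80802835), encoding GluA2, had 317, 267, 321, 324 and 291 TPM in fed and 174, 232 and 250 TPM (lowest, median, highest) in FD AGRP libraries. Its groups did not overlap on the TPM scale or in normalised CPM (857 to 953 fed, 717 to 834 FD), as for 7.65% of all genes, yet the log2 fold change was -0.24 ± 0.14 with q = 0.324. The mean was 304 TPM fed and 218 TPM FD, and the fitted FD value was 0.85 of the fed level. TPM carries no correction between libraries beyond its fixed sum, whereas normalised CPM and the fit both use TMM scaling. The fit takes 1 estimate of spread per gene over all 4 groups. In normalised CPM the SD of Gria2 was 41.2 in AGRP fed, 54.7 in AGRP FD, 240 in POMC fed and 61.5 in POMC FD libraries. The part of this in the q was not tested.

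Gria4 (ENSMUSG00000025892, chr9:4417899-4796234), encoding GluA4, showed 213, 174, 174, 207 and 184 TPM in fed and 108, 153 and 166 TPM in FD AGRP libraries (log2 fold change -0.16 ± 0.15, q = 0.572). The remaining pair, Grik4 (ENSMUSG00000032017, chr9:42518135-42944493) and Grik5 (ENSMUSG00000003378, chr7:25009853-25072369), encode the kainate subunits that need a partner. Grik4 spanned 8.11 to 19.8 TPM in fed and 5.34 to 21.7 TPM in FD libraries, and Grik5 72.7 to 104 and 37.5 to 91.8 TPM. Their log2 fold changes of -0.05 ± 0.32 (95% interval -0.71 to 0.61) and -0.08 ± 0.21 (-0.52 to 0.36) were within the spread between mice.

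The 3 calls held when any 1 of the 11 AGRP libraries was left out. Scaling by the added ERCC spike-in RNA per sorted cell left none of them past the threshold, with log2 fold changes of 1.53 for Gria3 (q = 0.763), 2.11 for Grik3 (q = 0.370) and -0.48 for Grik2 (q = 1.00), so directions were kept and the calls were not. The labelled spike-in volume differed between libraries, and so did the spike-in reads. AGRP fed replicate 1 had 1 µl and 54433 such reads, and AGRP fed replicate 2 had 10 µl and 2755357. The part of this in the scaled results was not tested.

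In POMC neurons 0 of the 9 genes passed between FD and fed mice, where 0.375% of all genes did (0.182% higher, 0.194% lower), and none had groups apart in normalised counts, as 2.35% of all genes had. With limma-voom and with DESeq2 0 were called as well. At least 1020 of all 16513 genes had an unadjusted p under 0.05, and 2 of the 9 members did, at ranks 961 and 1020 by p. The largest of these was Grik5, whose fed libraries read 69.8, 68.5, 149, 106 and 67.6 TPM and whose FD libraries read 78.6, 77.0, 51.5, 76.4 and 49.8 TPM (log2 fold change -0.57 ± 0.22, q = 0.273). The other was Gria2, at 135, 194, 331, 271 and 360 TPM in fed and 369, 372, 354, 344 and 325 TPM in FD libraries (0.37 ± 0.14, q = 0.258). Fed replicates 1 and 2, the only POMC mice of day 51, were the lowest fed libraries for each of the 4 AMPA genes. They read 21.4 and 39.4 TPM for Gria3 and 62.5 and 62.2 TPM for Gria4. Gria1 and Gria2 overlapped between conditions.

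Gria3 in POMC neurons spanned 21.4 to 102 TPM in fed and 50.6 to 100.4 TPM in FD mice, with a log2 fold change of 0.41 ± 0.25 (95% interval -0.10 to 0.93, q = 0.537). Grik2 was at 62.0, 60.7, 88.0, 52.1 and 85.1 TPM in fed and 91.0, 102, 93.7, 82.1 and 68.6 TPM in FD libraries (0.22 ± 0.23, q = 0.777). For Grik3 the fed libraries had 19.98, 13.8, 22.8, 25.3 and 19.7 TPM and the FD libraries 27.7, 26.2, 16.1, 17.0 and 31.0 TPM (0.11 ± 0.36, q = 0.954). All 3 overlapped between the conditions. The intervals of the remaining members ran from -0.08 to 0.58 for Gria1, from -0.33 to 0.29 for Gria4, from -1.14 to 1.33 for Grik1 and from -0.86 to 0.52 for Grik4.

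Whether deprivation acted differently in the cell types was tested by the interaction, the log2 fold change in AGRP less that in POMC neurons. It passed for 2 of 9 genes, against 6.71% of all genes (4.08% higher, 2.63% lower). There were 4 without POMC fed replicate 3. Only 1 passed without AGRP FD replicate 4 or 5, POMC fed replicate 2, or POMC FD replicate 2 or 3. Gria3 rose more in AGRP neurons (1.34 ± 0.35, q = 0.0170), and Grik2 moved down relative to POMC neurons (-1.07 ± 0.31, q = 0.0334). Gria1 (-0.71 ± 0.22, q = 0.0502), Gria2 (-0.60 ± 0.20, q = 0.0606) and Grik3 (1.38 ± 0.51, q = 0.102) missed the threshold, which all 3 passed with limma-voom (q = 0.0344, 0.0163 and 0.0431). Grik1 (1.42 ± 0.84, q = 0.363) did not pass it under any of 12 alternatives. With ERCC scaling neither call remained, with Gria3 at 2.05 (q = 0.550) and Grik2 turned to 0.36 (q = 0.886), or 1.00 and -0.69 relative to the shifted median of all genes. In limma on TPM the Gria3 interaction was 0.85 to 0.87 with q of 0.220 to 0.291. That of Grik2 had q between 0.0516 and 0.0755 without AGRP fed replicate 3, AGRP FD replicate 4 or 5, POMC fed replicate 2 or 4, or POMC FD replicate 1, 2 or 3, with a log2 value still between -0.96 and -1.07.

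**Figure D2:**
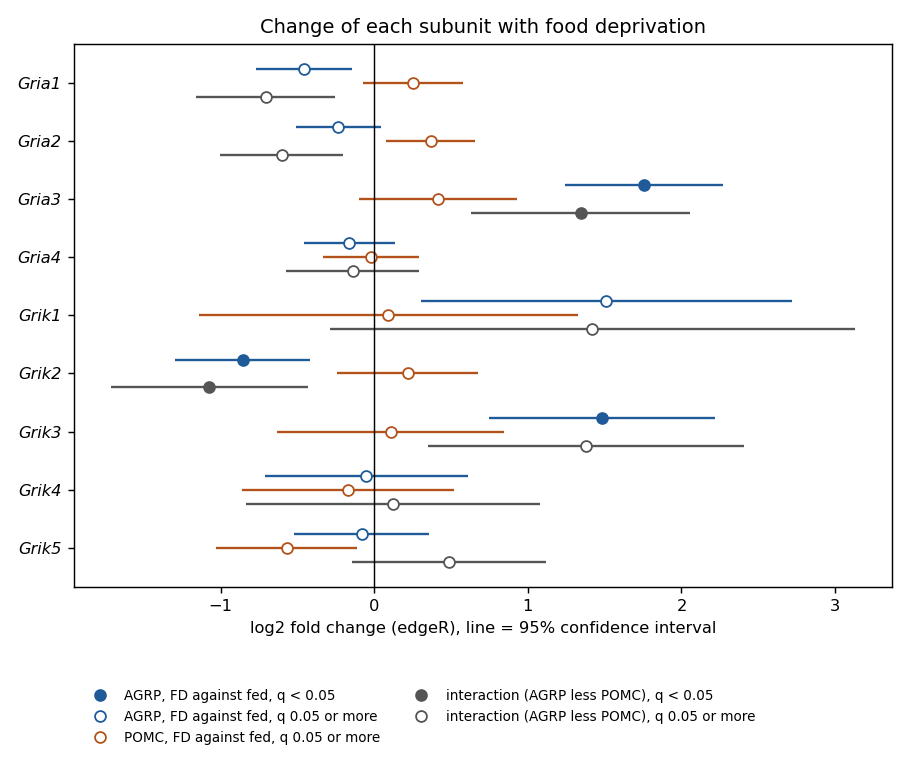
Log2 fold change of each subunit gene in AGRP neurons, in POMC neurons (both FD against fed) and the interaction (AGRP less POMC), from the edgeR fit. Lines are 95% confidence intervals and filled points have q under 0.05. Filled points stand at 1.76 (Gria3), -0.86 (Grik2) and 1.48 (Grik3) for AGRP neurons and at 1.34 (Gria3) and -1.07 (Grik2) for the interaction, with none for POMC neurons.

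Between the cell types of fed mice, 3 of 9 genes differed, against 7.57% of all genes (3.33% higher, 4.24% lower). Gria4 was higher in AGRP than in POMC neurons. Its 5 AGRP fed libraries (174 to 213 TPM) lay above the POMC fed libraries at 62.5, 62.2, 100.5, 89.4 and 101 TPM, by 2.04-fold (log2 1.03 ± 0.15, q = 1.88e-05). Grik3 was lower in AGRP neurons at 0.24 of the POMC level (-2.06 ± 0.38, q = 0.000307), again without overlap. Gria3 was lower too, at 0.46 of the POMC level (-1.11 ± 0.25, q = 0.00398), although POMC fed replicate 1, at 21.4 TPM, lay inside the AGRP fed range. On TPM with limma the Gria3 difference was -0.79 to -0.81 and the call was lost (q = 0.103 to 0.142). Groups that did not overlap in normalised CPM were found for 2 of the 9, Gria4 and Grik3, and for 8.93% of all genes.

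Between the cell types of FD mice, 5 of 9 genes differed, against 18.6% of all genes (9.28% higher, 9.27% lower). This comparison uses the same FD libraries as those above. Gria1 was lower in AGRP neurons, with 73.5 to 116 TPM against 203, 256, 275, 224 and 211 TPM in POMC neurons (0.46 of the POMC level, log2 -1.12 ± 0.15, q = 2.36e-06). Grik2 was lower at 0.48 of the POMC level (-1.07 ± 0.22, q = 0.000481), and Gria2 at 0.70 (-0.52 ± 0.14, q = 0.00625). All 3 had non-overlapping groups in TPM and in normalised CPM.

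Gria4 stayed on the higher side in AGRP neurons, at 108 to 166 TPM against 77.5, 117, 90.8, 81.2 and 72.6 TPM (1.85-fold, 0.89 ± 0.15, q = 4.53e-05). The TPM ranges met through POMC FD replicate 2, and those of normalised CPM did not. Grik1 was 6.97-fold higher in AGRP neurons (2.80 ± 0.63, q = 0.00146), and the POMC FD libraries held 0.448, 2.84, 2.07, 5.41 and 7.41 TPM against 7.38 to 38.7 TPM, ranges that touched in TPM and not in normalised CPM. Gria3, at 0.23 ± 0.24 (q = 0.567), had a 95% interval from -0.26 to 0.72. In normalised CPM 5 of the 9 genes did not overlap between the cell types, as did 11.4% of all genes.

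Ages differed between the cell types, because no POMC mouse was of day 46 or 47, and with an age term in the fit 3 members were called between the cell types of fed mice and 5 in FD mice. The term set day 46 or 47 against later ages, so it did not separate POMC fed replicates 1 and 2, of day 51, from the older POMC mice. With ERCC scaling the median of all genes moved to 1.10 in the FD comparison, to 1.04 in the interaction and to -1.11 in POMC neurons, against -0.08 in AGRP neurons and 0.08 in fed mice. Under it Gria1 (0.01), Gria2 (0.63) and Grik2 (0.38) were no longer lower in FD AGRP than in FD POMC neurons, but relative to the shifted median they were at -1.09, -0.47 and -0.72. Only the higher Grik1 kept its call (q = 0.000988). The labelled spike-in volumes differed between the POMC groups, although 3 libraries of each had 1 µl. POMC fed replicates 1 and 2 had 2.16 and 2.04 µl, with 83690 and 102689 spike-in reads. POMC FD replicates 4 and 5 had 10 µl, with 1152518 and 1812282 such reads, and no POMC fed library had 10 µl. In AGRP neurons 2 fed and 2 FD libraries had 10 µl. The part of this in the shifted medians and turned signs was not tested.

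Expressed as shares of the summed AMPA subunit TPM, which compare the 4 transcripts within a library, Gria3 made up 4.18 ± 0.52% (SD, n = 5) in AGRP fed and 15.0 ± 2.68% (n = 6) in AGRP FD neurons. The fed libraries lay between 3.50 and 4.65% and the FD libraries between 11.99 and 18.1%. Gria1 went from 22.8 ± 1.90% to 17.8 ± 2.65%, Gria2 from 44.9 ± 1.69% to 40.6 ± 3.65% and Gria4 from 28.1 ± 1.88% to 26.6 ± 2.81%. In POMC neurons the share of Gria3 was 9.14 ± 2.55% fed and 10.3 ± 2.45% FD, and that of Gria1, 32.1 ± 3.81% and 31.0 ± 1.69%, was above the AGRP values in every library. Gria2, the subunit with the edited site printed above, was the largest AMPA share in all 4 groups, between 34.7 and 52.7% in single libraries.

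Among kainate subunits Grik5 and Grik2 together made up most of the TPM in fed AGRP neurons (44.6 ± 7.23% and 40.4 ± 3.69%). In FD AGRP neurons Grik5 stood at 45.0 ± 6.29% and Grik2 at 23.5 ± 4.53%, while Grik1 was at 14.1 ± 3.89% against 4.59 ± 2.09% fed and Grik3 at 8.55 ± 2.65% against 2.68 ± 1.84%. Single FD libraries ran from 19.4 to 30.3% for Grik2, below all fed libraries (36.0 to 45.7%). In POMC neurons Grik2 was at 34.5 ± 7.80% fed and 43.4 ± 4.52% FD and Grik1 at 1.54 ± 1.23% and 1.90 ± 1.56%. Shares are given as descriptions, with no test. Taken on counts, which do not allow for gene length, they shifted toward Gria2, which has the longest transcripts of the 4, with Gria2 at 59.0% and Gria3 at 2.85% of AMPA reads in fed AGRP neurons and Gria3 at 10.6% in FD ones. Of kainate reads Grik2 then exceeded Grik5 in fed neurons, at 47.6% against 35.3% (AGRP) and 37.9% against 32.3% (POMC). In FD AGRP neurons Grik5 remained above Grik2 (36.1% against 28.1%), and Grik3 was at 15.8%.

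**Figure D3:**
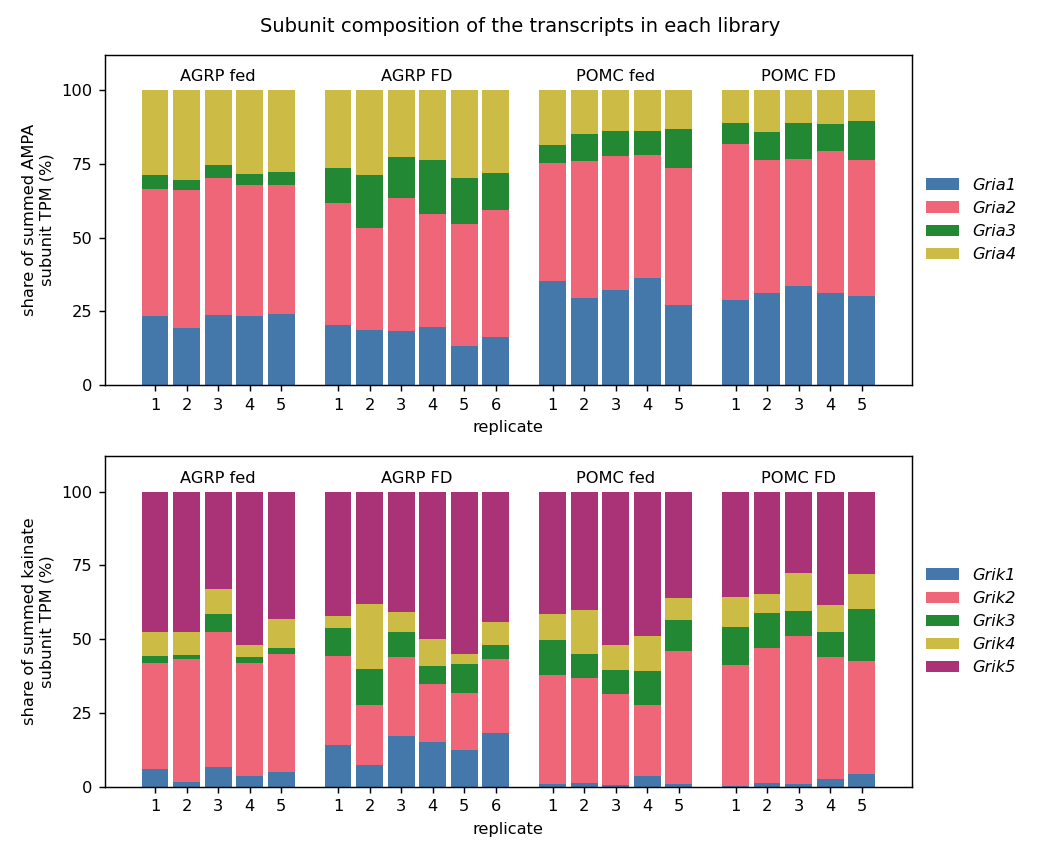
Share (%) of each subunit in the summed TPM of the 4 AMPA genes (top) and the 5 kainate genes (bottom), 1 bar per library, ordered by group and replicate number, with bars from 0 to 100%. The Gria3 segment is 3.50 to 4.65% in the AGRP fed bars and 11.99 to 18.1% in the AGRP FD bars, and the Grik2 segment is 36.0 to 45.7% and 19.4 to 30.3%.

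The proteins that assemble with these subunits, carry them to the synapse or hold them there were taken as 57 further genes, of which 56 were tested. In AGRP neurons 16 of them changed with deprivation, 6 higher and 10 lower, where 10.3% of all genes did (5.87% higher, 4.43% lower), and their median log2 fold change was -0.06 over the 56. Without AGRP fed replicate 3, fed replicate 4 or FD replicate 5 there were 10 each time. In POMC neurons 0 of the 56 passed, against 0.375% of all genes, and 0 with limma-voom and with DESeq2. An unadjusted p under 0.05 was found for 8 of the 56, and for at least 1020 of all 16513 genes.

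Among the 17 auxiliary subunits 2 rose and 4 fell in AGRP neurons. Syndig1l, a relative of Syndig1, went from 6.28 ± 4.35 to 46.8 ± 6.70 TPM (log2 3.13 ± 0.71, q = 0.00355) and Syndig1, a membrane protein that binds AMPA receptors, from 3.05 ± 1.85 to 19.9 ± 9.45 TPM (2.98 ± 0.60, q = 0.00120). Their fed and FD ranges did not overlap. Cacng3 (TARP gamma-3), a chaperone and gating subunit of AMPA receptors, fell from 14.1 ± 5.86 to 2.93 ± 3.71 TPM (-2.12 ± 0.69, q = 0.0443), and Shisa9, an AMPA receptor partner that slows recovery from desensitisation, from 247 ± 25.1 to 77.4 ± 50.7 TPM (-1.47 ± 0.26, q = 0.000218). Cacng5 and Cacng4, of the same TARP family, fell as well. The kainate auxiliary genes differed by cell type, with Neto2 higher in AGRP than in POMC neurons (fed 68.4 ± 13.4 against 10.96 ± 5.52 TPM, log2 2.50 ± 0.28, q = 1.39e-07) and Neto1 lower (15.5 ± 4.70 against 47.3 ± 24.6 TPM, -1.77 ± 0.49, q = 0.0217).

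Of the 15 assembly and surface partners tested, 1 rose and 1 fell in AGRP neurons. Nptx2, a secreted pentraxin that clusters AMPA receptors, went from 14.2 ± 15.9 to 45.3 ± 22.7 TPM (log2 1.94 ± 0.50, q = 0.00997), with 1 fed library at 42.5 TPM, inside the FD range. Olfm2, an olfactomedin found with AMPA receptors, fell from 89.4 ± 17.7 to 36.6 ± 24.9 TPM (-1.07 ± 0.35, q = 0.0481).

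Scaffold and trafficking genes gave 2 higher and 5 lower of 19. Akap5, which anchors kinases and a phosphatase at AMPA receptors, fell from 34.4 ± 3.83 to 6.79 ± 5.00 TPM (log2 -2.13 ± 0.36, q = 0.000138), and Camk2a, the kinase of long-term potentiation, from 235 ± 27.9 to 108 ± 30.5 TPM (-0.89 ± 0.17, q = 0.000637). Homer1, a postsynaptic scaffold with a short activity-induced form that gene counts do not separate, rose from 10.4 ± 1.21 to 19.2 ± 9.03 TPM (1.15 ± 0.33, q = 0.0214). Shank2 fell (-0.78 ± 0.19, q = 0.00569), and so did Dlg1 and Dlg2.

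The editing enzymes gave 0 of 3 in AGRP neurons (edgeR, 0 also at an unadjusted p under 0.05). Adarb1 (ADAR2), which edits the Gria2 codon printed above, was at 29.2 ± 8.06 TPM fed and 26.2 ± 8.33 TPM FD (log2 0.09 ± 0.23, q = 0.887) in AGRP neurons and at 26.0 ± 6.18 and 39.9 ± 11.4 TPM in POMC neurons (0.51 ± 0.25, unadjusted p = 0.0462, q = 0.399). Adarb2 read between 0 and 2.44 TPM over all libraries.

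The interaction passed for 8 of the 56 partners, 4 in each direction, and for 6.71% of all genes (4.08% higher, 2.63% lower). Syndig1l (3.90 ± 0.97, q = 0.0123), Syndig1 (3.34 ± 0.81, q = 0.0107), Nptx2 (2.69 ± 0.70, q = 0.0161) and Shank1 (0.94 ± 0.29, q = 0.0493) moved up in AGRP relative to POMC neurons, and Akap5 (-2.21 ± 0.51, q = 0.00694), Shisa9 (-1.37 ± 0.37, q = 0.0204), Camk2a (-0.93 ± 0.24, q = 0.0174) and Grid1 (-0.93 ± 0.29, q = 0.0486) moved down. Between the cell types 13 partners differed in fed (8 without AGRP fed replicate 2) and 21 in FD mice (13 without POMC FD replicate 5), against 7.57% and 18.6% of all genes. Besides the Neto genes, fed AGRP neurons had more Olfm1 (log2 1.17 ± 0.20, q = 0.000175) and Shisa9 (1.32 ± 0.27, q = 0.00117) and less Nptx1 (-1.54 ± 0.32, q = 0.00123) and Syndig1 (-2.66 ± 0.60, q = 0.00379) than fed POMC neurons. In FD mice Camk2a was lower (-1.45 ± 0.17, q = 1.62e-07) and Syndig1l higher (3.69 ± 0.73, q = 0.000392) in AGRP neurons. With ERCC scaling the partner calls fell to 0 in AGRP neurons, in fed mice and in the interaction, and to 5 between the cell types of FD mice.

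**Figure D4:**
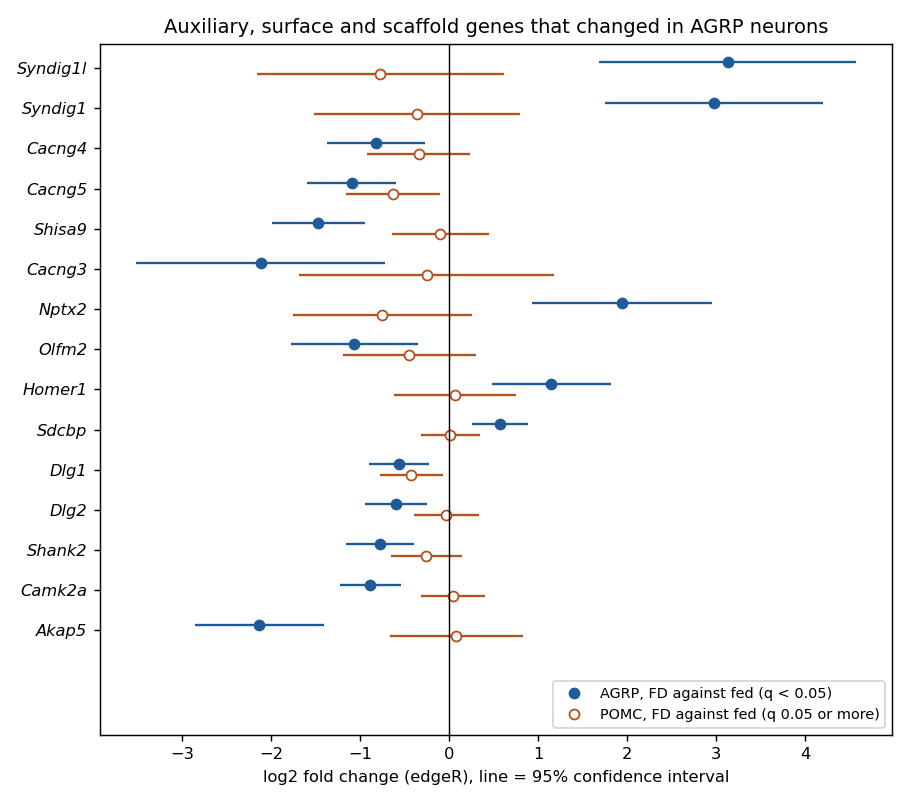
Log2 fold change with deprivation of the 15 auxiliary, assembly and scaffold genes with q under 0.05 in AGRP neurons (filled), beside the same genes in POMC neurons (open), ordered by list and size. Lines are 95% confidence intervals from the edgeR fit. AGRP values run from -2.13 (Akap5) to 3.13 (Syndig1l), and none of the POMC values passed the threshold.

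The genes whose log2 CPM over the 21 libraries was most like that of the members that changed in AGRP neurons were sought by the smallest root mean square difference of standardised values. For Gria3 these were Setdb2 (0.47), Map1a (0.51) and Hecw1 (0.53), where the median over 16513 genes was 1.41. For Grik3 they were Pdyn, the prodynorphin gene (0.45), Mllt3 (0.51) and Alcam (0.55), and for Grik2 Aldh3b2 (0.44), Gucy1a3, a subunit of soluble guanylate cyclase (0.44), and Osbpl9 (0.50).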

How the data were processed

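The authors removed adaptors (cutadapt 1.7.1), discarded ribosomal, mitochondrial and low-complexity reads (Bowtie2 2.1.0), mapped the rest to mm10 (STAR 2.4.0i) and assigned uniquely mapped reads to genes without strand (HTSeq 0.6.1p1), which gave the deposited counts. The deposited TPM values were made by the authors from counts over summed exon length, scaled to a fixed sum per library. RNA was amplified before sequencing, and 92 ERCC spike-ins were added. Reads in no gene (25.6 to 55.3% of the table) or in several (1.01 to 1.58%), and spike-ins, were left out of library sizes.

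From the counts, genes above 1 CPM in at least 3 libraries were kept, TMM-normalised and fitted with edgeR 4.0.16 (R 4.3.3; quasi-likelihood, 4 groups and no covariates). q is the Benjamini-Hochberg adjusted p over all 16513 genes, and called genes have q under 0.05. TPM was used for levels and shares. Subunits were compared across the 5 contrasts, every member is named, and per partner list up to 4 called genes with the largest change are described. The members and lists were chosen with earlier results of these data known. Alternatives were limma 3.58.1, DESeq2 1.42.0, other scalings, filters, blocks, single libraries left out, and log2(TPM + 1) with limma. The age block was added after the data were seen. Libraries came from separate mice. Loci are the files' mm10 positions (start counted from 1). Depth set a floor of 3 counts, or 0.0797 to 0.305 CPM per library, for counting error only. No member was at 0. The fits were tested on simulated data. Of the partner genes called, 1 is counted and not reported here by name.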

Additional observations from a re-analysis of the deposited data

Results flagged for a closer look

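Of 36 gene and group combinations checked for a library far from the others of its group, 3 stood out, where chance alone gives about 1 in 20. Gria1 in AGRP fed replicate 2 was at 111 TPM, below the next library at 160 TPM. Grik1 in POMC fed replicate 4 was at 8.02 TPM, above the next at 2.41 TPM. Grik3 in AGRP fed replicate 3 was at 13.6 TPM, above the next at 5.04 TPM, and the fitted log2 fold change of Grik3 in AGRP neurons was between 1.27 and 2.11 over the fits that left out 1 library.

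The response to deprivation differed between AGRP and POMC neurons (interaction, q under 0.05 in edgeR) for Gria3 (1.34) and Grik2 (-1.07) among the subunits and for Shisa9 (-1.37), Syndig1 (3.34), Syndig1l (3.90), Nptx2 (2.69), Akap5 (-2.21), Shank1 (0.94), Camk2a (-0.93) and Grid1 (-0.93) among the partner genes, all as differences of log2 fold changes.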

How the results depend on the processing

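With ERCC scaling the subunits with q under 0.05 numbered 0 in AGRP neurons, 0 between the cell types of fed mice, 1 of FD mice and 0 in the interaction, and the partner genes 0, 0, 5 and 0; the cause was not tested. For the interaction 5 subunits passed with limma-voom and 4 with DESeq2. In POMC neurons 0 passed under every alternative.

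Under ERCC scaling the sign turned for Grik4 in AGRP neurons (0.021), for Gria1 (-0.66), Gria2 (-0.60), Gria3 (-0.52), Grik1 (-1.11), Grik2 (-0.84) and Grik3 (-0.97) in POMC neurons, for Gria1 (0.013), Gria2 (0.63), Grik2 (0.38), Grik3 (0.82) and Grik4 (0.69) between the cell types of FD mice, and for Gria1 (0.12), Gria2 (0.32), Gria4 (0.65) and Grik2 (0.36) in the interaction. Elsewhere it turned for values near 0 and outside the calls: Gria4 in POMC neurons with limma on TPM (0.090 with a pseudocount of 1, with or without the filter, and 0.091 with 0.1), Grik1 in POMC neurons with limma-voom (-0.23) and the spike-in set as a block (-0.29), Grik2 between the cell types of fed mice with limma-voom (-0.012), no count filter (-0.0089), only the compared groups (-0.0024) and the age block (-0.10), and the Grik4 interaction with the spike-in block (-0.028), the number of sorted cells (-0.19) and limma on TPM (-0.33, -0.36 with 0.1, and -0.33 without the filter).

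Leaving out 1 library at a time, the called subunits numbered 3 to 4 in AGRP neurons, 0 to 0 in POMC neurons, 3 to 4 between the cell types of fed mice, 5 to 5 of FD mice and 1 to 4 in the interaction, and the partner genes 10 to 16, 0 to 0, 8 to 13, 13 to 21 and 6 to 8. The sign turned in some of these fits for Grik4 (-0.35 to 0.10) and Grik5 (-0.18 to 0.030) in AGRP neurons, Gria4 (-0.13 to 0.045), Grik1 (-0.35 to 0.72) and Grik3 (-0.0056 to 0.22) in POMC neurons, Gria2 (-0.048 to 0.20) and Grik2 (-0.11 to 0.066) between the cell types of fed mice and the Grik4 interaction (-0.18 to 0.27).

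Of the fold changes of single members under the other alternatives, 506 kept their direction and side of the threshold, 26 newly passed it, 14 lost it and 30 turned. Same-numbered libraries came from different mice and their deviations correlated between -0.113 and 0.053, so the numbers do not pair the samples. With the replicate number as a block, the Grik3 interaction passed the threshold (1.62, q = 0.0449).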
